A study of Saccharomyces cerevisiae with 6 samples.

Results

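The genes described here are 10 genes of the mating response of budding yeast, taken by name from 6212 identifiers on the arrays: STE2 (YFL026W), SST2 (YLR452C), FUS3 (YBL016W), STE12 (YHR084W), KAR4 (YCL055W), FAR1 (YJL157C), AGA1 (YNR044W), AGA2 (YGL032C), FUS1 (YCL027W) and PRM3 (YPL192C). The systematic names of all 10 were found in the R64 annotation of the yeast genome. In total 9 of the 10 had a value on at least 1 array, 7 had a value on all 6 arrays, and STE12 had none. The cells were Saccharomyces cerevisiae of strain mmr09-4, in the cml476 background, in which a kanmx4-teto7 cassette stands before the reading frame of YPI1. Doxycycline shuts this promoter off, and YPI1 encodes a regulatory subunit of the protein phosphatase Glc7. The treated cells grew in YPD, a rich glucose medium, with 100 µg/ml doxycycline in an ethanol and water mix for 2, 4 or 6 h. The untreated cells were the same strain, tetO7 cassette included, grown in YPD with the ethanol and water mix for the same times. At each time 1 pair of RNA samples was hybridised to 2 two-colour arrays with the dyes exchanged.

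Every sample carried the tetO7 cassette, so an effect of the drug itself cannot be told apart from that of YPI1 shut-off. The labels name neither the mating type of the strain nor any pheromone among the treatments. Values are log2 ratios of doxycycline over untreated cells, with the base of the logarithm taken as 2. YPI1 itself lay between −4.06 and −6.44 on the 6 arrays, which checks the direction of each ratio but not the dye labels.

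In haploid yeast, a pheromone released by cells of the opposite mating type binds a receptor on the cell surface. The receptor frees a G protein, which starts a relay of protein kinases ending at the transcription factor Ste12. Ste12 then raises genes for sticking to the partner, for arresting the cell cycle in G1, for fusing the cells and for joining the nuclei. Several of the same genes are also expressed without pheromone and vary through the cell cycle.

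The mating genes lay near 0 after 2 and 4 h of doxycycline and spread widely at 6 h, with no common direction. At 6 h AGA1, the cell wall anchor of the a-agglutinin, was 4.14-fold higher in doxycycline cells than in untreated cells. PRM3, a nuclear envelope protein needed for fusion of the nuclei, was 2.78-fold lower. FUS1, FAR1, FUS3 and STE2 were 1.41-fold to 1.66-fold higher and AGA2 was 1.57-fold lower. None of the 7 genes tested over the times passed either limma test after adjustment. Of the 9 measured genes, AGA1, FUS3, KAR4 and PRM3 kept the sign of their mean 6 h ratio on all 5 scales computed. The other 5 genes turned on at least 1. For KAR4 this holds for the mean alone, as its 6 h arrays had opposite signs, at −0.14 and 0.32.

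**Figure D1:**
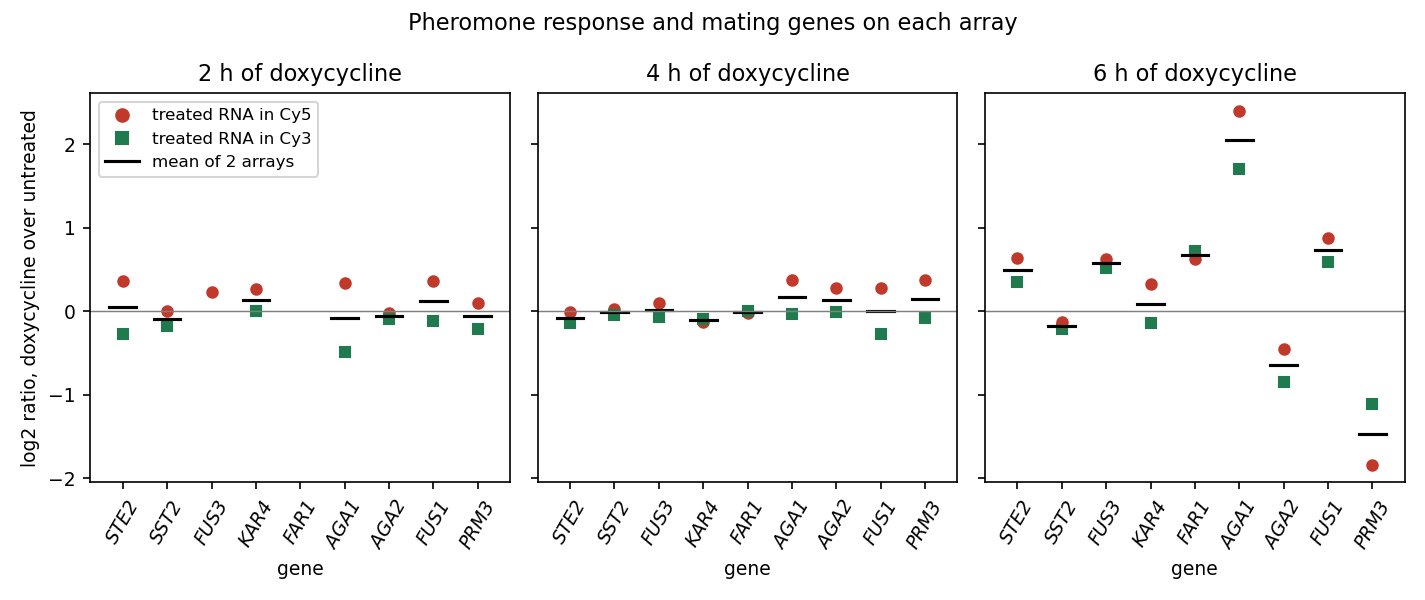
Log2 ratio of doxycycline over untreated cells for the 9 measured genes at 2, 4 and 6 h. Circles are arrays with the treated RNA in Cy5, squares arrays with it in Cy3, and bars the mean of the 2 arrays. At 2 and 4 h the points lie between −0.49 and 0.38, and at 6 h AGA1 stands highest at 1.71 and 2.40 and PRM3 lowest at −1.11 and −1.84.

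At 2 h the swapped arrays disagreed in sign for 6 of the 7 genes with both arrays, against 66.5% of the 4119 genes measured on both. The exception was AGA2, the adhesive subunit of the agglutinin, at −0.02 and −0.09. All 7 genes had the higher ratio on the array with treated RNA in Cy5, which held for 54.2% of all genes at 2 h. The widest gap was that of AGA1, at 0.33 with treated RNA in Cy5 and −0.49 with it in Cy3. At 4 h the Cy5 array was the higher one for 7 of 9 genes, against 52.8% of all genes, and at 6 h for 7 of 9, against 63.6%. With dye orientation as a term in limma, none of the 7 genes with all 6 arrays passed the mean or the slope described later.

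No mating gene reached a 2-fold difference at 2 or 4 h. A gene was counted as past 2-fold where the mean of its 2 arrays was at least 1 in size and both arrays had the same sign. Over all genes 0.0486% were past that limit at 2 h and 0.064% at 4 h. The 7 genes with both arrays at 2 h had means from −0.09 to 0.13 with a median of −0.05, against −0.01 for all genes. At 4 h the 9 genes had means from −0.11 to 0.17 with a median of 0.0015, against 0.01 for all genes.

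At 6 h 2 of the 9 measured genes passed 2-fold, AGA1 higher and PRM3 lower. Over all 4160 genes measured on both 6 h arrays, 17.9% passed 2-fold, 9.81% higher and 8.08% lower. At a 1.5-fold limit 5 of the 9 passed, with FUS1 and FAR1 joining AGA1 on the high side and AGA2 joining PRM3 on the low side, against 49.2% of all genes. Both arrays lay above 0 for 5 genes and below 0 for 3, against 39.4% and 48.3% of all genes, and KAR4 had 1 of each sign, as had 12.1%. The median of the 9 genes was 0.49, with array medians of 0.36 and 0.63, against −0.10 for all genes. Both counts past a fold limit were near the share over all genes.

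The 6 h ratios of all genes went with gene length, and the mating genes shared that pattern. The Spearman correlation of the 6 h ratio with annotated length was 0.63 over 3921 genes and 0.73 over the 9 mating genes. Genes on an array are not independent of each other, so these are descriptions. The shortest of them, AGA2 with 264 bp and PRM3 with 402 bp, were the 2 lowest. AGA1, with 2178 bp, was the highest. The relation also differed between chromosomes, which were grouped with the values known. Genes of 2000 to under 2600 bp had a median of −0.46 on chromosomes X to XIII (SD 0.70, 151 genes) and 1.20 on the others (SD 0.63, 169 genes). At 900 to under 1600 bp the medians lay closer and the other way round, at 0.25 (SD 0.59, 371 genes) and 0.05 (SD 0.59, 1108 genes). At 200 to under 450 bp they were −0.97 (SD 0.43, 98 genes) and −0.80 (SD 0.45, 212 genes). SST2, on chromosome XII with 2097 bp, and AGA1, on chromosome XIV with 2178 bp, differ by little in length and lay on the 2 sides of this split. For this reason each 6 h ratio is given beside its difference from matched genes. These are the 20 genes of the same chromosome that come closest in length, and their median was subtracted on each array.

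**Figure D2:**
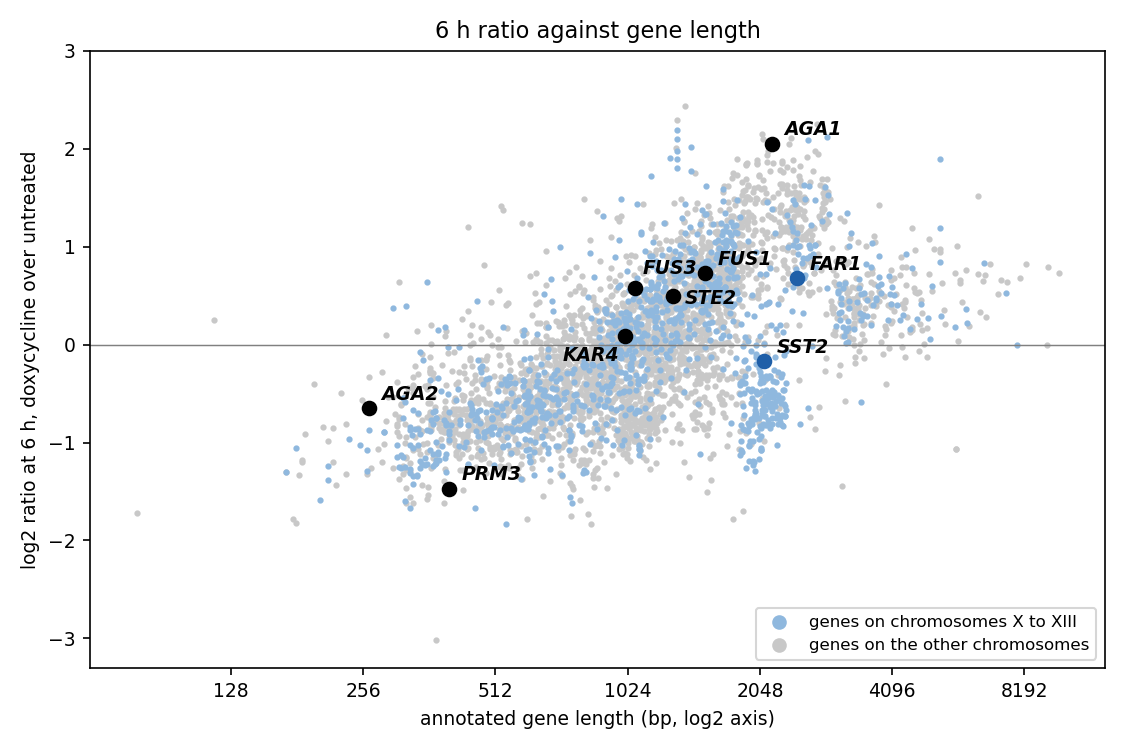
Mean log2 ratio at 6 h against annotated gene length in bp on a log2 axis, for genes with a value on both 6 h arrays. Pale blue points are genes on chromosomes X to XIII, grey points genes on the others, and the large dark points the 9 mating genes in the same 2 colour families. AGA2 and PRM3 lie low among short genes, AGA1 lies at the top of genes near its length, and YPI1 falls below the plotted range.

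Relative to matched genes none of the 9 genes chosen here and measured passed 2-fold, against 5.53% of the 3921 genes with such a value. The median of the 9 genes was then 0.06, against −0.01 for all genes. Across the 9 genes the Spearman correlation with length was 0.12 on that scale. AGA1 stayed highest at 0.90 and PRM3 lowest at −0.63.

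STE2 encodes the receptor for α-factor, the pheromone released by α cells, and is made in a cells. Its log2 ratios were 0.36 and −0.27 at 2 h, followed by −0.01 and −0.15 at 4 h and by 0.36 and 0.63 at 6 h. The arrays disagreed in sign at 2 h, were both just below 0 at 4 h and both above 0 at 6 h. The 6 h mean was 0.49 ± 0.20 (SD of 2 technical arrays, as for all values at 1 time). Against its matched genes on chromosome VI the 6 h value was −0.03 ± 0.01, and 10 of those 20 genes had a lower 6 h mean than STE2. Over the times STE2 had a mean of 0.15 (SE 0.20, limma adjusted p = 0.806).

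SST2 encodes the GTPase-activating protein that turns the receptor's G protein off again and so helps cells recover from pheromone. Its ratios were 0.01 and −0.18 at 2 h, then 0.02 and −0.04 at 4 h and then −0.21 and −0.14 at 6 h. SST2 stayed within 0.21 of 0 on every array. Its 6 h mean of −0.17 ± 0.05 was above the median of its 20 matched genes on chromosome XII, and relative to them it was 0.35 ± 0.03, with both arrays above 0. The curve of the ratio on length over all chromosomes, in contrast, put SST2 at −0.87.

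FUS3 encodes the mitogen-activated protein kinase of the pathway, which phosphorylates Far1 and the repressors of Ste12. It had 1 value at 2 h, 0.23, then 0.10 and −0.07 at 4 h, and 0.52 and 0.63 at 6 h. The 2 arrays of 6 h lay close together and above all its earlier values. The 6 h mean was 0.58 ± 0.07, or 1.49-fold, and relative to matched genes 0.51 ± 0.03. Among the chosen genes other than KAR4, FUS3 had the 6 h ratio that moved least when set against matched genes. With a missing array at 2 h it was not in the limma tests.

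STE12, the transcription factor at the end of the relay, had no value on any array. KAR4 encodes a transcription factor that acts with Ste12 on genes for nuclear fusion. KAR4 had ratios of 0.27 and −0.002 at 2 h, then −0.12 and −0.10 at 4 h and then −0.14 and 0.32 at 6 h. It was the 1 gene of those chosen here whose 6 h arrays disagreed in sign, with a mean of 0.09 ± 0.33 and 0.06 ± 0.38 relative to matched genes. Over the times its mean was 0.04 (SE 0.18, limma adjusted p = 0.936).

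FAR1 encodes an inhibitor of the G1 cyclin-dependent kinase, which carries out the arrest of the cell cycle and also helps to orient growth toward the partner. It had no value at 2 h, then −0.02 and −0.002 at 4 h and then 0.73 and 0.63 at 6 h. The 4 h values were at 0 and the 6 h values both well above it, with a mean of 0.68 ± 0.07, or 1.60-fold. Set against matched genes, FAR1 was at −0.21 ± 0.12. Its 20 matched genes on chromosome X ranged from −1.03 to 1.62. Those of STE2 and FUS1 ranged at least as widely, from −1.003 to 1.75 and from −1.39 to 2.00. The length curve put FAR1 at −0.05.

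AGA1 and AGA2 encode the 2 subunits of a-agglutinin, with which a cells stick to α cells. Aga1 holds the complex in the cell wall, and Aga2, joined to it by disulfide bonds, binds the agglutinin of the partner. AGA1 had ratios of 0.33 and −0.49 at 2 h, then 0.38 and −0.03 at 4 h and then 1.71 and 2.40 at 6 h. The 6 h arrays were far above the earlier ones, and the lower of the 2 was above every other gene chosen here on either array. The 6 h mean of 2.05 ± 0.49 was higher than that of 99.7% of genes measured on both 6 h arrays, and higher than all 20 matched genes on chromosome XIV, which reached 1.94. On the matched scale AGA1 had 0.58 and 1.22 on the 2 arrays, with a mean of 0.90 ± 0.46, which was above 96.5% of genes on that scale.

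AGA2 had ratios of −0.02 and −0.09 at 2 h, then 0.28 and −0.01 at 4 h and then −0.84 and −0.46 at 6 h. Its 6 h arrays were both below 0, opposite to AGA1. The 6 h mean was −0.65 ± 0.27. Relative to matched genes of 234 to 363 bp on chromosome VII it had 0.14 ± 0.24, with 1 array on each side of 0. So the 2 agglutinin subunits had ratios of opposite sign at 6 h, and on the matched scale AGA1 lay above 0 on both arrays while AGA2 did not lie below.

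FUS1 encodes a membrane protein at the tip of the mating projection, which promotes cell fusion and is widely used as a reporter of the pheromone response. Its ratios were 0.37 and −0.12 at 2 h, then 0.28 and −0.28 at 4 h and then 0.58 and 0.88 at 6 h. At 2 and 4 h the 2 arrays straddled 0, and at 6 h both were above it, with a mean of 0.73 ± 0.21, or 1.66-fold. On the matched scale, with genes of chromosome III, FUS1 was at −0.08 ± 0.14. The 20 matched genes had a median of 0.84, and 9 of them had a lower 6 h mean than FUS1.

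PRM3 had ratios of 0.10 and −0.21 at 2 h, then 0.37 and −0.08 at 4 h and then −1.11 and −1.84 at 6 h. Among the genes chosen here PRM3 was the only one past 2-fold on the low side. Both its 6 h arrays were below those of every other chosen gene. The 6 h mean was −1.47 ± 0.52, with 0.745% of genes lower. All 20 matched genes on chromosome XVI, of 342 to 486 bp, had a 6 h mean above that of PRM3, the lowest of them at −1.43. On the matched scale the 2 arrays of PRM3 gave −0.11 and −1.15, with a mean of −0.63 ± 0.74, so the size of this difference rests on the array with treated RNA in Cy5.

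**Figure D3:**
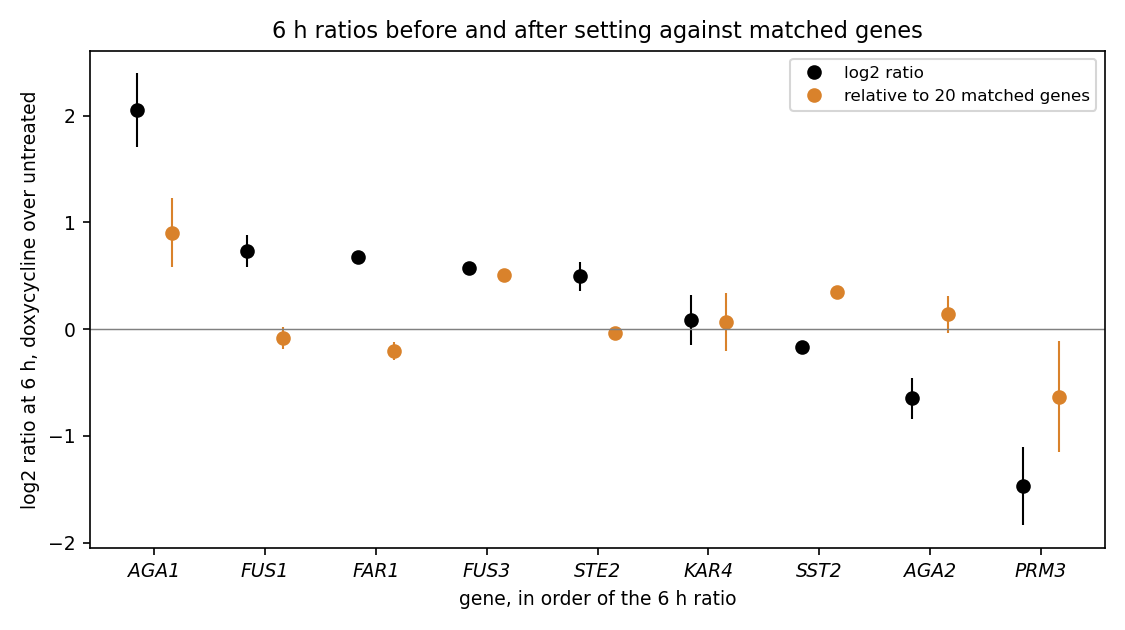
Log2 ratio at 6 h (black) and the same relative to 20 matched genes of the same chromosome (orange), for the 9 measured mating genes in order of the ratio. Points are means of 2 arrays and lines join the 2 arrays. AGA1 is highest on both scales at 2.05 and 0.90, PRM3 lowest at −1.47 and −0.63, and FUS1, FAR1 and STE2 move to between −0.21 and −0.03.

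In order of the 6 h ratio, AGA1 stood clear of the next gene, FUS1, on both arrays. FUS1, FAR1, FUS3 and STE2 followed within 0.36 to 0.88. Of these neighbours FUS1 overlapped with FAR1 and FUS3 with STE2 on their arrays. The lower array of FAR1 was at 0.628, and the upper ones of FUS3 and STE2 were at 0.627 and 0.633. The order among these genes is thus loose. KAR4 and SST2 overlapped with each other around 0. AGA2 and PRM3 each lay below the gene before them on both arrays.

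Over the 3 times no mating gene passed a test. In limma the average of the 3 times was tested against 0 and, in a second fit, the slope on hours of doxycycline through 0, over 3391 genes with all 6 arrays. The RNA pairs differ in hours, so a change with time adds to the error of the first fit. Of the 7 mating genes tested none passed the mean (limma, lowest adjusted p = 0.806, 0 genes with an unadjusted p below 0.05), against 0.0295% of all genes. None passed the slope (limma, lowest adjusted p = 0.306), against 0.059% of all genes.

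For the slope 2 of the 7 chosen genes tested, AGA1 and PRM3, had an unadjusted p below 0.05 in limma. So had 486 of all 3391 genes tested (14.3%). AGA1 had a slope of 0.23 per hour (SE 0.06, limma adjusted p = 0.306) and was above 0 on 4 of 6 arrays. PRM3 had −0.15 per hour (SE 0.06, limma adjusted p = 0.306) and was below 0 on 4 of 6 arrays. Without 6 h the slopes were 0.03 per hour for AGA1 and 0.02 for PRM3. With 4 h left out, AGA1, FUS1, AGA2 and PRM3 passed the slope test, but so did 51.5% of all genes. Their slopes were then 0.30, 0.12, −0.10 and −0.22 per hour. That fit had only 2 RNA pairs, and the SE was 0.0378 for every mating gene tested. Passing it thus follows the size of the slope and not the spread of the gene.

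A wider list of mating genes was set beside these 10. It held 73 other genes by role, of which 61 had a value on at least 1 array and 40 had both arrays at 6 h. At 6 h 5 of the 40 passed 2-fold higher and 2 lower, against 9.81% and 8.08% of all genes, with a median of 0.08, against −0.10 for all genes. Those higher were CDC24 (1.31), the exchange factor of the polarity GTPase, and STE24 (1.29), a protease that matures a-factor. The G1 cyclins CLN2 (1.16) and CLN1 (1.06) and BAR1 (1.11), the secreted protease that degrades α-factor, were higher as well. Those lower were FUS2 (−1.17), needed for cell fusion, and CDC42 (−1.01), the polarity GTPase. None of the 7 passed 2-fold relative to matched genes, where they lay between −0.52 and 0.71.

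On the matched scale 1 of the 40 passed 2-fold, against 5.53% of all genes. It was KAR2, named after its value was seen, at 1.30 on that scale but 0.72 ± 0.13 as the plain ratio and 0.05 with the length curve removed. KAR2 encodes the chaperone of the endoplasmic reticulum, which nuclear fusion also requires. Of the 73 other genes 35 were in the limma tests. None passed the mean (0 with an unadjusted p below 0.05) or the slope (3 with an unadjusted p below 0.05, against 14.3% of all genes).

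Upstream in the pathway the G protein and kinase genes lay on both sides of 0. GPA1, the α subunit of the G protein, had means of 0.15, −0.11 and 0.18 at 2, 4 and 6 h, and STE4, the β subunit, had −0.0045, −0.02 and −0.02. STE18, the γ subunit and a gene of 333 bp, was at −0.66 ± 0.12 at 6 h and 0.30 ± 0.01 relative to matched genes. The kinase STE11 was at −0.32 ± 0.20 at 6 h and 0.20 ± 0.12 relative to matched genes. The scaffold STE5, the kinase STE7 and the Fus3-like kinase KSS1 each had a single array at 6 h, with 0.85, 0.15 and 0.26. STE20, the kinase above STE11, was at 0.76 ± 0.49 at 6 h and −0.41 ± 0.69 relative to matched genes, and was named after its value was seen. The scaffold and kinase group also held genes that are not kinases, such as CDC24 and CDC42. Of its 8 genes with both arrays at 6 h, FUS3 among them, 5 lay above 0 and 3 below. The shares over all genes were 39.4% and 48.3%. The median of the 8 was 0.50, and 0.12 relative to matched genes.

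Regulators of Ste12 and the targets of the pathway lay on both sides of 0 at 6 h as well. DIG1, a repressor of Ste12, was at −0.12 ± 0.26, and TEC1, the partner of Ste12 in filamentous growth, had no 6 h value. FUS2, which acts in cell fusion as FUS1 does, lay on the other side of 0 from FUS1 in the plain ratio. Relative to matched genes both means lay below 0, FUS2 at −0.52 ± 0.20 and FUS1 at −0.08 ± 0.14. The arrays of FUS1 had both signs on that scale, at 0.016 and −0.18. CIK1, the partner of the kinesin KAR3, was at 0.69 ± 0.26 and 0.25 ± 0.09 relative to matched genes. KAR3 had 1 array at 6 h, with 1.97. FIG2, an adhesin of the mating projection, also had 1 array, with 0.41, while PRM1 had no value at 6 h and FIG1 none on any array. Of the 6 genes with both 6 h arrays in the group of other pheromone-regulated genes, 5 were below 0 on both and 1 above, against 48.3% and 39.4% of all genes. Relative to matched genes 4 were below, 1 above and 1 had both signs, against 38.4%, 36.0% and 25.5% of all genes. PRM2 of this group, named after its value was seen, had a single array at 6 h, with 1.025.

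Genes particular to 1 mating type were set apart as well. Among 7 genes made in a cells, 6 had both arrays at 6 h, with 4 above 0 on both, against 39.4% of all genes, 2 below 0 on both and a median of 0.37. Relative to matched genes 2 were above 0, 2 below and 2 of both signs, with a median of 0.06. Over all genes these shares were 36.0%, 38.4% and 25.5% on that scale. BAR1 was at 1.11 ± 0.35 and 0.42 ± 0.28 relative to matched genes, and STE6, the exporter of a-factor, at 0.53 ± 0.04 and −0.02 ± 0.28. MFA2, one of the genes for a-factor, was at 0.25 ± 0.04 and at 0.91 ± 0.03 relative to matched genes. The 2 a-cell genes below 0 in the plain ratio were AGA2 and ASG7. ASG7, named after its value was seen, was at −0.99 ± 0.44 and −0.47 ± 0.36 relative to matched genes. MFA1 had no value on any array. Among 4 genes made in α cells, SAG1, the α-agglutinin, was the 1 with both arrays at 6 h, at −0.80 ± 0.04 and −0.12 ± 0.01 relative to matched genes. STE3, the a-factor receptor of α cells, had no value. A ratio gives no level, so the mating type of the strain could not be read from these values.

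**Figure D4:**
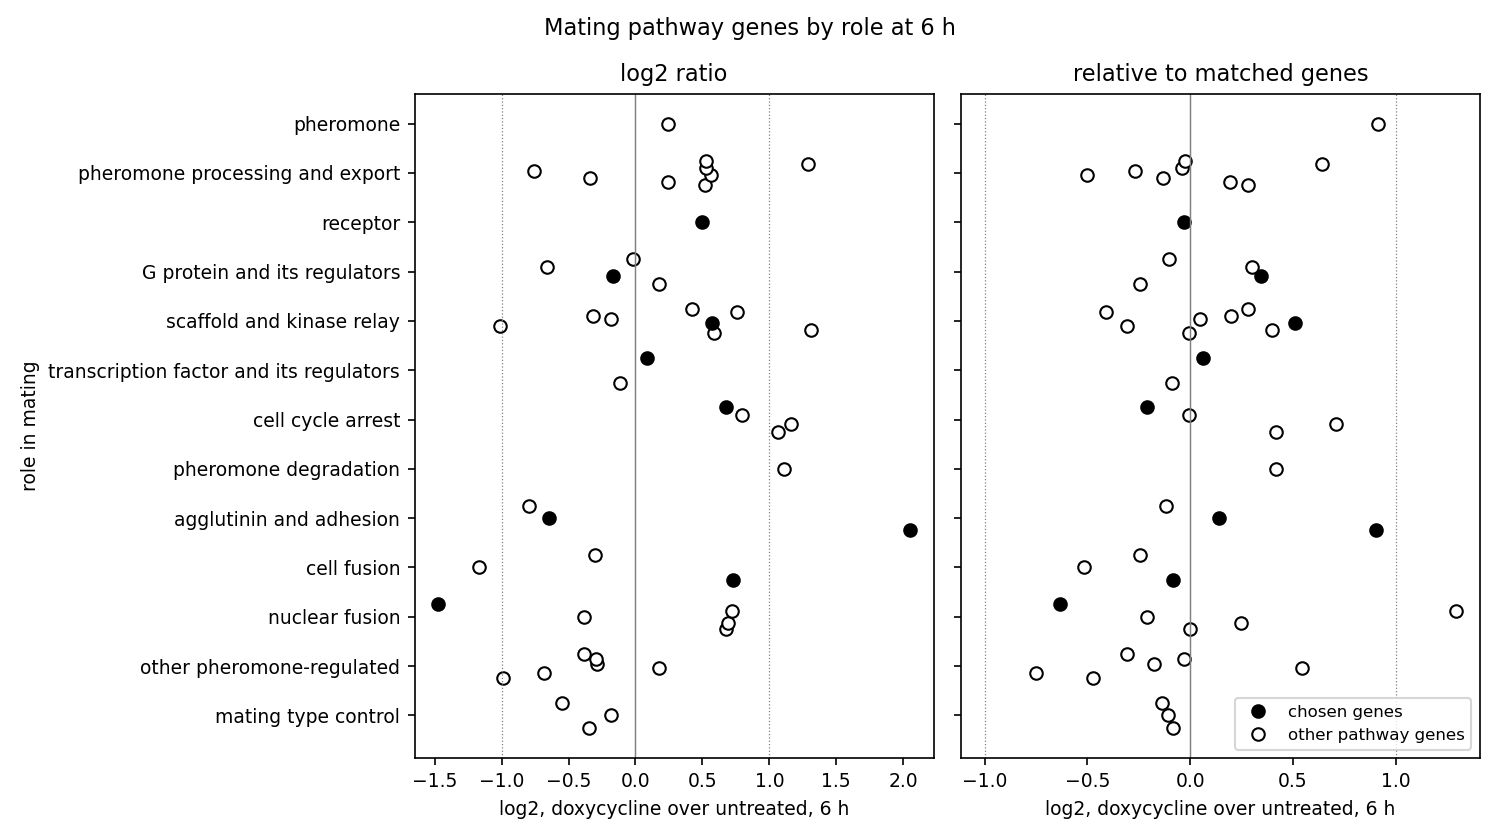
Log2 ratio at 6 h (left) and the same relative to matched genes (right) for mating genes with both 6 h arrays, grouped by role. Filled points are the genes chosen here, open points other genes of the pathway, and dotted lines mark 2-fold. On the right the points draw in toward 0, with KAR2 at 1.30 the 1 point past a dotted line.

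FAR1 and the G1 cyclins, which it restrains, stood on the same side at 6 h. All 4 measured genes of the arrest group, FAR1, CLN1, CLN2 and CLN3, were above 0 on both arrays, against 39.4% of all genes. Set against matched genes, CLN2 was at 0.71 ± 0.29, CLN1 at 0.42 ± 0.23 and CLN3 at −0.0045 ± 0.25, while FAR1 was below 0. Several mating genes are transcribed at the boundary of mitosis and G1, and 13 other genes of that phase were set beside them. Of these 8 had both arrays at 6 h, 7 with both above 0, against 39.4% of all genes, and 2 were past 2-fold higher, against 9.81%. Their median was 0.49, as was that of the mating genes. Relative to matched genes it was −0.13, with 3 above 0 on both arrays, 2 below and 3 of both signs. All genes had 36.0%, 38.4% and 25.5% on that scale. Their part in the result was not tested.

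The median of the 7 mating genes with all 6 arrays was compared with every other gene of that kind by Euclidean distance over the 6 arrays. The nearest were LEU2 (0.14), MRPL7 (0.15), TOH1 (0.19), YBR089W (0.20) and MRS1 (0.20). The mating genes themselves lay 0.44 (KAR4) to 2.80 (AGA1) from their own median. These distances cannot be weighed against those of the 5 genes, which were picked as the closest of all.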

How the data were processed

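Ratios of doxycycline over untreated cells from 6 two-colour arrays (2, 4 and 6 h, 2 dye-swapped arrays each) were used as deposited. The deposited values are log2 ratios as far as the values show. The base is not stated. Per the labels, small spots (below 120 µm across) and dim spots (below 100 units in the dyes) had been removed by the authors. How arrays were normalized, spots averaged and swapped arrays turned is not given in the sources used here. A 2 h array, labelled Cy3 for treated and untreated RNA alike, was used as the swapped one. Brightness of spots was not used here: depth is unknown, and precision is limited by the number of arrays.

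Of 6212 identifiers 5662 matched the R64 annotation. The 2 arrays of each time come from the same RNA and were averaged, so the SD is technical and a single time has no test. With 3 RNA pairs an exact sign-flip test cannot go below p = 0.25. limma 3.58.1 in R 4.3.3 (lmFit, eBayes) tested the mean and the slope over the times, two-sided, with Benjamini-Hochberg adjustment at 0.05. Its p-values do not measure the spread between biological replicates. The fits were tested on simulated data with planted changes larger than those of any mating gene, so smaller changes were not covered. Matched genes are the 20 of a gene's own chromosome closest to it in length, and the length curve was a lowess of span 0.3 with 3 robust steps. The other scales were arrays centred on their medians, and centred and scaled.

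The genes and lists were chosen with earlier results of these data known. The text names the 10 genes, YPI1, a fixed set of pathway genes, each further pathway gene past 2-fold and the 5 nearest in profile. A planned search of promoters for the Ste12 site was not run, because no sequence was used here. HMRA1 was not analysed here.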

Additional observations from a re-analysis of the deposited data

Results flagged for a closer look

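Some genes had both arrays of 1 time on one side of 0 and both arrays of another time on the other side. None of these differences between times was tested, since each time has 1 RNA pair. For the genes named here the means at 2 and 4 h lay between −0.25 and 0.18.

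Among the 10 genes this held for STE2 and FAR1. STE2 was at 0.49 ± 0.20 at 6 h and −0.08 ± 0.10 at 4 h, a difference of 0.57. FAR1 was at 0.68 ± 0.07 at 6 h and −0.01 ± 0.01 at 4 h, a difference of 0.69. Relative to matched genes both lay below 0 at 6 h, at −0.03 and −0.21.

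Between 6 and 4 h this held for 2 of the 9 mating genes and 10 of 40 other pathway genes, against 23.7% of all genes. Between 6 and 2 h it held for 4 of 35 other pathway genes, against 10.6% of all genes, and between 4 and 2 h for 3 of 43, against 8.09%. No mating gene did so in these last comparisons.

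Of the other pathway genes named in the results, BAR1 differed by 1.23 between 6 and 4 h, and STE6 by 0.72 between 6 and 4 h and by 0.78 between 6 and 2 h. FUS2 differed by −1.34 and STE18 by −0.74 between 6 and 4 h. GPA1 differed by −0.25 between 4 and 2 h and by 0.29 between 6 and 4 h, and KSS1 by −0.15 between 4 and 2 h. The remaining ones are named after their values were seen. CLN3 differed by 0.99 between 6 and 4 h and by 0.996 between 6 and 2 h, STE20 by 0.92 and STE14 by −0.94 between 6 and 4 h, and PGU1 by −0.78 between 6 and 2 h. RCE1 differed by 0.32 between 4 and 2 h and by −0.50 between 6 and 4 h, and MSG5 by −0.21 between 6 and 4 h and by −0.26 between 6 and 2 h.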

How the results depend on the processing

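With 1 RNA pair per time and no signal intensities, no value at 1 time has a biological error. The count of genes past the limma mean test, 1 as reported, was 8 with arrays centred and scaled, 2 with the length curve removed, 0 relative to matched genes (36 with an unadjusted p below 0.05), 2 without 2 h, 2 without 4 h and 11 without 6 h. The count past the slope test, 2 as reported, was 4 with arrays centred and scaled, 0 with the length curve removed (408 with an unadjusted p below 0.05), 0 relative to matched genes (355), 1745 without 4 h and 10 without 6 h. None of the chosen genes passed in any of these except the 4 slopes without 4 h. With the 6 arrays taken singly, although dye swaps share RNA, 2 genes passed the mean with the replicate block and 2 with a dye term, neither a mating gene. The replicate numbers do not pair the arrays across times, as the differences of replicate 1 and 2 correlated over genes with r = 0.57 between 2 and 4 h, −0.71 between 2 and 6 h and −0.54 between 4 and 6 h, and replicate 1 has treated RNA in Cy5 at 2 and 4 h but in Cy3 at 6 h. Without replicate 1 or replicate 2 the counts were 1 and 1 for the mean and 2 and 2 for the slope.

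The 6 h median of the mating genes, 0.49, was 0.24 with arrays centred and scaled, 0.26 with the length curve removed and 0.063 relative to matched genes, and between 0.36 and 0.63 with either replicate left out. It was also 0.49 without the genes on chromosomes X to XIII and without AGA1 and PRM3, alternatives chosen after seeing the data. The count of mating genes past 2-fold at 6 h, 2 as reported, was 0 with arrays centred and scaled, 1 with the length curve removed, 0 relative to matched genes and 5 at 1.5-fold. Directions of the tested means turned relative to matched genes for STE2 (−0.0037), SST2 (0.0498) and AGA2 (0.0732), with the length curve removed for AGA2 (0.13), without 6 h for STE2 (−0.0155), AGA2 (0.0385) and PRM3 (0.0465), and for KAR4 without 2 h (−0.0107) and without replicate 2 (−0.001, against 0.0743 without replicate 1). Slopes turned relative to matched genes for STE2 (−0.0041), SST2 (0.0272) and AGA2 (0.0206), with the length curve removed for AGA2 (0.0382), without 6 h for STE2 (−0.0107), KAR4 (−0.0091), AGA2 (0.0211) and PRM3 (0.024), and for KAR4 with arrays centred and scaled (−0.0003) and without replicate 2 (−0.0148, against 0.0275 without replicate 1). None of these values passed a test, and the cause was not tested.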
